A study of Mus musculus with 3 samples.

Results

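Cytotoxic lymphocytes kill target cells with a small set of proteins, and 10 genes for such proteins are described here, of the 17857 counted in sorted lymph node cells. They are the granzymes Gzma, Gzmb, Gzmk and Gzmm, the pore former Prf1, the granule proteins Nkg7, Srgn and Ctsw, the death ligand gene Fasl and the chemokine gene Ccl5. Members were taken by gene name, and all 10 were found, each with a sum of 10 counts or more. They were chosen by name with the levels of these same 3 libraries known, so their levels are given as a description, without a test.

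In killer cells, perforin opens the membrane of the target and granzymes, serine proteases stored in the same granules, enter and start cell death. Serglycin, the proteoglycan encoded by Srgn, packs these proteases in the granule, and it serves mast cells, neutrophils and other blood cells in the same way. Fas ligand kills through a receptor on the target and needs no granule. Natural killer (NK) cells and activated CD8 T cells are the cells best known for these genes, while naive T cells and most myeloid cells are not.

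The data were 3 RNA sequencing libraries of 1 group, called replicates 1, 2 and 3, from untreated C57BL/6J mice. The mice carried B16F10 melanomas, a transplantable tumour line, in the front of both upper thighs, and when tumours were at day 14 the draining nodes were taken apart and pooled. Cells that stained for Ly6C and c-kit and not for CD11c were sorted, and each library began with 8 ng of RNA and a kit that marks strand. Every library is of the same kind and there is no control group. The sources used here do not give the age of the mice, their number per pool or whether pools shared mice, and the p-values below reflect the spread among these libraries alone, which may be technical. Values in 3 libraries are given in the order of replicates 1, 2 and 3 throughout.

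The libraries held between 9077195 and 13885509 counts, and mitochondrial ribosomal RNA took 17.8, 6.22 and 13.1% of them, least in replicate 2. The sort genes did not run together. Kit, which encodes c-kit, was read at 9.83, 5.35 and 5.92 normalised counts per 1000000 (CPM). Ly6c2, one of the Ly6C genes, was read at 11.5, 121 and 41.2 CPM, and Ly6c1 at 19.1, 4.28 and 17.6 CPM, with the split between these close paralogs uncertain. Itgax, the gene of the excluded CD11c, was read at 26.9, 43.2 and 24.0 CPM. The labels call the cells precursors, and a list of 6 general T cell genes (Cd3e, Cd3d, Cd3g, Cd247, Lck and Cd2) summed to 1989, 2020 and 2267 CPM.

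Cytotoxic effector genes were present in all 3 libraries over a wide range of levels. Per kilobase of gene, which allows genes of different length to be compared, Ccl5 stood first with 262 ± 235 CPM per kilobase (mean ± SD, n = 3) and Srgn next with 173 ± 58.7. Gzma (75.8 ± 58.4), Nkg7 (71.1 ± 62.8) and Ctsw (65.4 ± 54.8) formed a middle group. Prf1 (23.9 ± 19.3), Gzmb (11.8 ± 6.58) and Fasl (10.2 ± 1.19) lay lower, and Gzmm (3.40 ± 2.52) and Gzmk (3.02 ± 1.81) were last. Among the 15490 genes tested, Ccl5 ranked at percentile 99.4 by mean level per kilobase, Gzma at percentile 96.0, Prf1 at percentile 81.2, Gzmb at percentile 65.4 and Gzmk at percentile 41.5. The members' median was 44.7 CPM per kilobase against 5.50 over all genes tested, and 8 of 10 members lay above the latter.

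**Figure D1:**
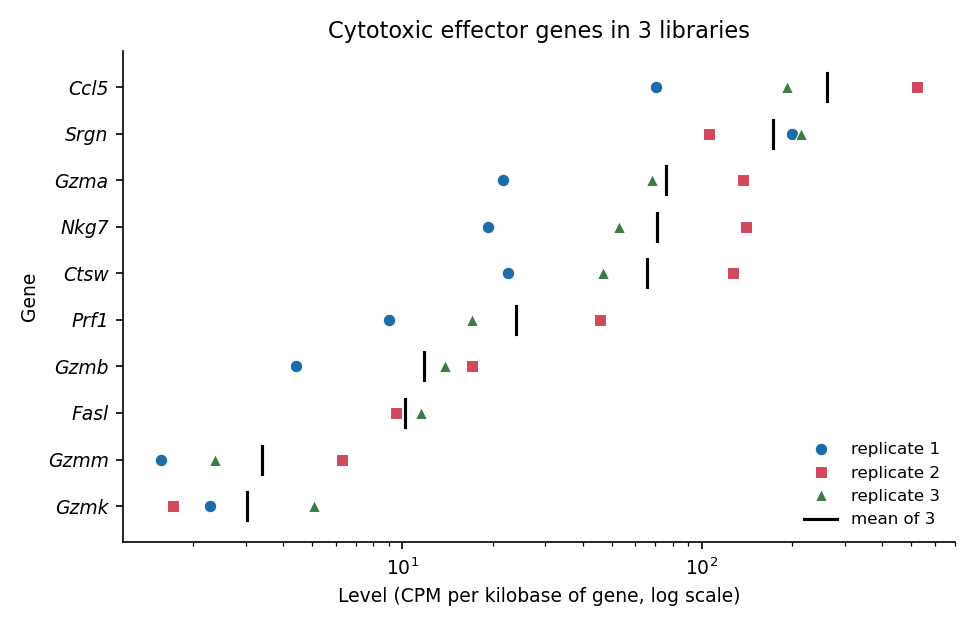
Level of each of the 10 cytotoxic effector genes on the horizontal axis (CPM per kilobase of gene, log scale), with 1 point per library and a black bar at the mean of the 3. Replicate 2 (squares) lies to the right of both other libraries for 7 genes and replicate 1 (circles) to the left of both, while Srgn, Fasl and Gzmk depart from that order; for Fasl the points of replicates 1 and 2 coincide.

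The order of the levels held only in part from library to library. Of the 9 pairs of neighbours in the order by mean level per kilobase, 3 kept their order in all libraries, namely Ctsw over Prf1, Prf1 over Gzmb and Fasl over Gzmm. Ctsw exceeded Prf1 by 1.41 ± 0.08 log2 units (SD, n = 3), Prf1 exceeded Gzmb by 0.92 ± 0.57 and Fasl exceeded Gzmm by 1.84 ± 1.08. For the other pairs the mean difference was smaller than its SD. Ccl5 and Srgn, first and second by mean, changed places in replicates 1 and 3, where Srgn was higher.

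The pore former and 3 of the 4 granzymes were highest in replicate 2, as were 32.0% of all genes tested. Prf1, which encodes perforin, was read at 18.5, 93.9 and 35.1 CPM, from 175, 1317 and 462 counts. Replicate 2 was highest and replicate 1 lowest, and the 95% exact Poisson intervals of 15.9 to 21.4, 88.9 to 99.1 and 32.0 to 38.4 CPM did not touch. Such intervals cover counting error only. Prf1 is Entrez gene 18646 on chromosome 10, 61297751 to 61304684 on the plus strand in build mm10, with up to 3 exons per transcript.

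Gzma encodes granzyme A, a protease that cuts after basic residues, and was read at 19.0, 121 and 59.8 CPM. The gene is Entrez gene 14938, chromosome 13, 113093824 to 113100981, minus strand. Gzmb encodes granzyme B, which cuts after aspartate and activates caspases, and was read at 6.23, 24.2 and 19.7 CPM. Replicates 2 and 3 lay close for Gzmb, with overlapping Poisson intervals of 21.7 to 26.9 and 17.3 to 22.2 CPM, while replicate 1 lay apart at 4.75 to 8.04. Gzmb is Entrez gene 14939, chromosome 14, 56258836 to 56262334, minus strand.

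Gzmm encodes granzyme M, a protease typical of NK cells, and was read at 2.01, 8.06 and 3.04 CPM, from 19, 113 and 40 counts. Replicate 2 stood above both others, and the intervals of replicates 1 and 3 overlapped. Gzmk, which encodes granzyme K of memory-type CD8 T cells, was read at 1.80, 1.36 and 4.03 CPM, from 17, 19 and 53 counts. Gzmk was highest in replicate 3, and replicates 1 and 2 were not separated by counting error (1.05 to 2.88 and 0.816 to 2.12 CPM). Per kilobase, Gzmk was read at 2.27, 1.71 and 5.08 CPM, against 0.253, 0.0225 and 0.0514 CPM per kilobase over 569 olfactory receptor genes, which leukocytes rarely use. Gzmm is Entrez gene 16904, chromosome 10, 79689020 to 79695261, plus strand, and Gzmk is Entrez gene 14945, chromosome 13, 113171630 to 113180965, minus strand, on the same chromosome as Gzma.

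Granule proteins other than Srgn followed the order of Prf1. Nkg7, a membrane protein of cytotoxic granules that aids their release, was read at 15.7, 115 and 43.1 CPM. Ctsw, a cysteine protease of cytotoxic lymphocytes, was read at 27.7, 157 and 57.5 CPM. Both were highest in replicate 2 and lowest in replicate 1, with no overlap of the counting intervals. Exons of Ctsw overlap those of Fibp on the opposite strand, and the sources used here do not give the strand setting of the counting, so the genes may share reads. Fibp itself was even, at 25.3, 23.5 and 21.0 CPM. Nkg7 is Entrez gene 72310, chromosome 7, 43437138 to 43438246, plus strand, and Ctsw is Entrez gene 13041, chromosome 19, 5465043 to 5468628, minus strand.

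Srgn ran the other way. It was read at 187, 99.4 and 201 CPM, with replicate 2 lowest and replicates 1 and 3 within counting error of each other. Srgn made up 56.0, 10.9 and 36.7% of the members' summed CPM, while Ccl5 made up 11.2, 30.4 and 18.7%. Which of replicates 1 and 3 was higher for Srgn depended on the scaling, replicate 1 with library totals alone. Srgn is Entrez gene 19073, chromosome 10, 62493833 to 62527445, minus strand.

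The secreted and membrane-bound effectors differed from each other. Ccl5, a chemokine that draws T cells and monocytes and is made by NK and memory CD8 T cells, was read at 37.4, 279 and 102 CPM. The span was 7.45-fold between replicates 2 and 1. Fasl was even, at 18.4, 18.5 and 22.4 CPM, and its 3 counting intervals overlapped. Its SD of 2.30 CPM around a mean of 19.8 was narrow beside that of Prf1, 39.6 CPM around a mean of 49.2. Ccl5 is Entrez gene 20304, chromosome 11, 83525778 to 83530518, and Fasl is Entrez gene 14103, chromosome 1, 161780691 to 161788495, both on the minus strand.

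By library, 7 members (Ccl5, Gzma, Nkg7, Ctsw, Prf1, Gzmb and Gzmm) were highest in replicate 2 and stood in the order 1, 3, 2 from low to high. Over all genes tested, 32.0% were highest in replicate 2 and 23.3% had that order. In 6 members replicate 2 was at least 2-fold above the mean of the other libraries, against 3.21% of all genes tested, and Gzmb stood at 1.87-fold. Fasl, Srgn and Gzmk were highest in replicate 3, as were 22.8% of all genes tested. The ratio of replicate 2 to the mean of the others was 3.98 for Ccl5, 3.90 for Nkg7, 3.68 for Ctsw, 3.51 for Prf1, 3.19 for Gzmm and 3.07 for Gzma. For Fasl, Srgn and Gzmk it was 0.906, 0.513 and 0.466. The median ratio was 3.13 over the members and 0.899 over all genes tested. The 7 genes summed to 127, 797 and 321 CPM. Without replicate 2 the mean was over 1.5 times lower for those 6 members, for example to 69.6 CPM for Ccl5, 26.7 for Prf1 and 39.2 for Gzma. Since the members were picked with these libraries in view and each library is single, none of these counts was tested.

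Promoter sequence is shown for 5 of the 7 genes high in replicate 2 and, beside them, for Gzmk, the granzyme gene that was not, because the granzyme genes are known targets of RUNX and T-box factors. RefSeq promoters of build GRCm38.p6, the assembly of mm10, were found for 8 members, with 10 start sites in all. None was found for Ccl5 and Ctsw, so these genes of the 7 were not searched. The stretches below run 5′ to 3′ on the gene's own strand and end at the start site, or earlier where an annotated exon begins. Capitals mark the RUNX letters TGTGGT and the T-box letters GGTGTGA on either strand, so that a RUNX match on the other strand reads ACCACA.
Gzmb (chr14:56262335-56262584, minus strand): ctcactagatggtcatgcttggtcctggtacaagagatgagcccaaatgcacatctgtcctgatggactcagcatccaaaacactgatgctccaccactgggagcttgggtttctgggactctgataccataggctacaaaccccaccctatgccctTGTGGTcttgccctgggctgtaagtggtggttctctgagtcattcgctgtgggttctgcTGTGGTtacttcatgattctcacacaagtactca
Gzma (chr13:113100982-113101231, minus strand): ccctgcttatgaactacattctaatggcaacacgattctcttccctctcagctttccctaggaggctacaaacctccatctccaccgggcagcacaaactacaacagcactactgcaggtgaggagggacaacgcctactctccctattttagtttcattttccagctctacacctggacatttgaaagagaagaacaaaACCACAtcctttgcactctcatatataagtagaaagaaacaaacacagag
Nkg7 (chr7:43436888-43437072, plus strand): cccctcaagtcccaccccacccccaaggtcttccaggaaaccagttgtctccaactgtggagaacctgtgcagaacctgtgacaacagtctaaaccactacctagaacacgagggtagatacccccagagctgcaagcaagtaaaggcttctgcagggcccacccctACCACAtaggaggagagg
Prf1 (chr10:61297586-61297750, plus strand): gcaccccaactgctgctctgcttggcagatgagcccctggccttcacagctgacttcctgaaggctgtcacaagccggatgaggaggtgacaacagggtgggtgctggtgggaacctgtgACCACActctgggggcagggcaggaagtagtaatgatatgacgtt
Gzmm (chr10:79688770-79689019, plus strand): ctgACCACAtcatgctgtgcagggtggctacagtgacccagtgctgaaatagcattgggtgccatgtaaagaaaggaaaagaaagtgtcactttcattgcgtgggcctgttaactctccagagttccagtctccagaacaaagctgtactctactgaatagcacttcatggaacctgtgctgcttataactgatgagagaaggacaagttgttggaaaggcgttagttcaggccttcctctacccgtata
Gzmk (chr13:113180966-113181215, minus strand): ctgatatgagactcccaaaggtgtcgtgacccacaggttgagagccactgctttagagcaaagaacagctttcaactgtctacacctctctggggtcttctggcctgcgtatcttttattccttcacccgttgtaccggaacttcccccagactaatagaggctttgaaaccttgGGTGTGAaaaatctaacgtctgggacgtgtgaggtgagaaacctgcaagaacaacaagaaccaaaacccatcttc

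The RUNX letters stood within 250 bases before the start of Gzmb, Gzma, Nkg7, Prf1 and Gzmm. They lay 93 to 88 and 34 to 29 bases before the start in Gzmb, 50 to 45 in Gzma, 83 to 78 in Nkg7, 130 to 125 in Prf1 and 247 to 242 in Gzmm. Of 32851 promoters searched over the same 250 bases, 14.0% held them, as did 6 of the 10 member promoters. The second start of Gzmm had no RUNX match. Among the other members, Fasl and Gzmk had no match and Srgn had one at the second of its start sites. The T-box letters were found 75 to 69 bases before the start of Gzmk, 13 to 7 before that of Nkg7, in the stretch left out above, and 189 to 183 before the second start of Gzmm, against 3.33% of all promoters. Of the other motifs, ETS (GGAAGT) was found in 4 of the 10 member promoters and 19.7% of all promoters, and AP-1 (TGANTCA) in 1 and 6.75%. STAT (TTCNNNGAA) was found in 2 and 7.02%, and the TATA box (TATAAA) in 1 and 12.4%. CRE (TGACGTCA) and NF-kB (GGGANTTCC) were found in 0 of 10 and in 1.55 and 1.43% of all promoters, and a second NF-kB form of 10 letters in 0 and 0.0852%. No match in a member promoter overlapped another. A match describes the letters and says nothing of binding. The 9 motifs were searched on both strands after the levels were known.

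Transcription factors known for this programme were read at different levels in the libraries. Eomes, a T-box factor of NK and memory T cells, was read at 15.9, 177 and 49.5 CPM. Its relative Tbx21, which encodes T-bet, was read at 19.7, 93.3 and 30.2 CPM, and Runx3, which sustains the CD8 and NK programmes, at 63.1, 224 and 106 CPM. These 3 genes, named after their values were seen, had the library order of Prf1. So did Stat4 and Hopx (18.5, 35.7 and 22.3 CPM) of the same list, and 23.3% of all genes tested. Stat4, which relays interleukin 12 signals, was read at 132, 312 and 262 CPM and was highest of the list per kilobase, followed by Id2, an inhibitor of E proteins, at 142, 64.1 and 87.2 CPM. Zeb2 was read at 118, 164 and 75.6 CPM, and Prdm1, a factor of terminal effector cells, was even at 19.3, 19.4 and 17.2 CPM. Of the 8 factors measured, 7 were highest in replicate 2, against 32.0% of all genes tested. Id2 was the exception, and for Prdm1 the lead over replicate 1 was slight.

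Markers of some lymphocytes moved with the members across libraries, while those of others did not. Over all genes tested, 32.0% were highest in replicate 2. All 7 NK genes listed (Ncr1, Klrb1c, Klre1, Klrd1, Klra4, Klrc1 and Klrk1) were highest in replicate 2, and they summed to 65.3, 435 and 201 CPM. That list, like the other marker lists, was chosen with earlier results of these data known, and its count was not tested. Ncr1, the gene of the NK receptor NKp46, was read at 7.82, 88.6 and 36.0 CPM. Both CD8 coreceptor genes were highest in replicate 2 as well, with sums of 26.8, 947 and 258 CPM. The CD4 T cell list (Cd4, Foxp3 and Cd40lg) ran against this at 605, 219 and 598 CPM, and the general T cell genes were nearly even in sum but not singly. Cd3e (315, 439.5 and 378 CPM) and Lck (379, 545 and 487) were highest in replicate 2, while Cd3d, Cd3g, Cd247 and Cd2 were lowest there, Cd247 at 339, 255 and 401 CPM. In the gamma delta T cell list, Trdc and Tcrg-C1 were highest in replicate 2 and Sox13 was at 0 there; the list summed to 7.71, 62.6 and 22.6 CPM. In bulk RNA, more cells of a type and more RNA per cell cannot be told apart, and the part of these cells in the members' levels was not tested.

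**Figure D2:**
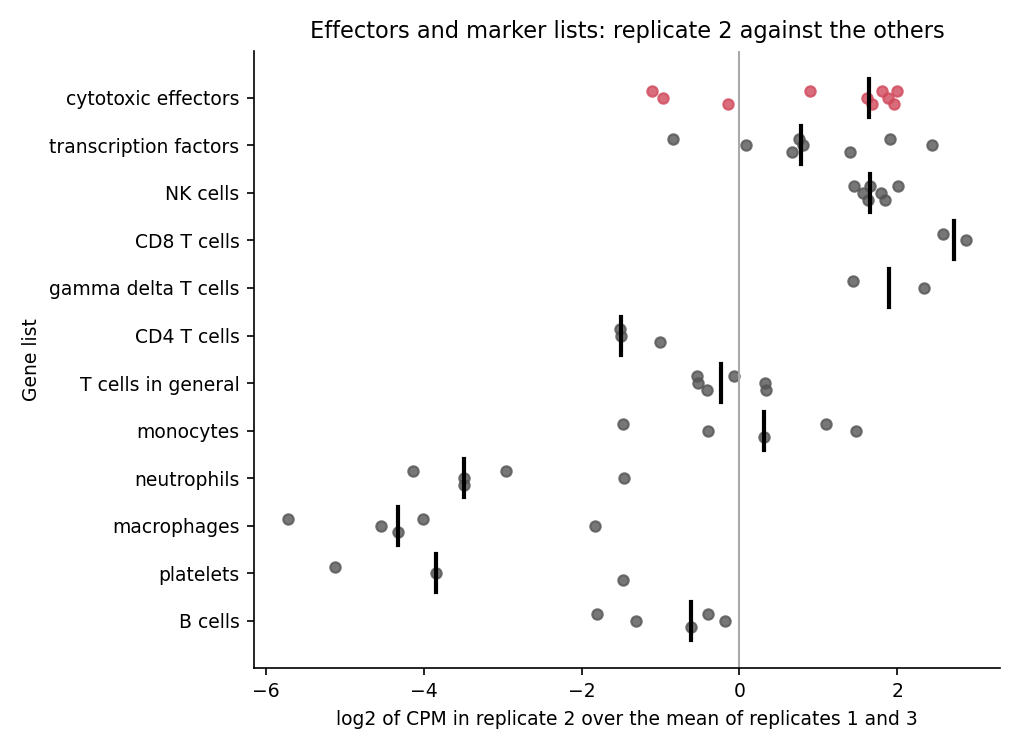
Each point is a gene, placed by the log2 ratio of its CPM in replicate 2 to the mean of replicates 1 and 3, by gene list, with a black bar at the median of the points drawn. The effector genes lie with the NK list on the right apart from Fasl, Gzmk and Srgn, the CD8 genes lie farther right, and the neutrophil, macrophage and platelet genes lie on the left; Sox13 and Gp9, at 0 in replicate 2, are not drawn.

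Ratios to NK and CD8 genes differed with the marker chosen. Per kilobase, Prf1 stood at 1.68, 0.755 and 0.694 times Ncr1, and at 3.25, 0.272 and 0.396 times Cd8a. Gzma stood at 4.05, 2.28 and 2.77 times Ncr1 and at 7.83, 0.820 and 1.58 times Cd8a. To Cd8b1, the other CD8 coreceptor gene, Prf1 stood at 0.701, 0.154 and 0.196 times and Gzma at 1.69, 0.463 and 0.783 times. Over the 7 genes, the highest of the 3 ratios exceeded the lowest by a median of 2.22 times with Ncr1 (1.68 to 3.04). Among the other NK genes that median was 1.38 with Klrb1c, 1.65 with Klrk1, 1.68 with Klrc1, 2.22 with Klrd1, 3.45 with Klra4 and 3.92 with Klre1 (2.59 to 5.38). It was 10.7 with Cd8a (8.15 to 15.7) but 4.10 with Cd8b1 (3.11 to 5.98), a range that overlaps that of Klre1, and 4.06 with Cd3e (2.78 to 5.34). With Cd4 the median over the 7 genes was 16.3 (11.2 to 21.5). For Fasl the highest ratio exceeded the lowest by 11.3 times with Ncr1, 1.41 times with Cd3e and 2.89 times with Cd4. For Srgn these values were 21.3, 2.62 and 1.53 times. These ratios describe 3 libraries, carry no test and do not say which cells held the transcripts.

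**Figure D3:**
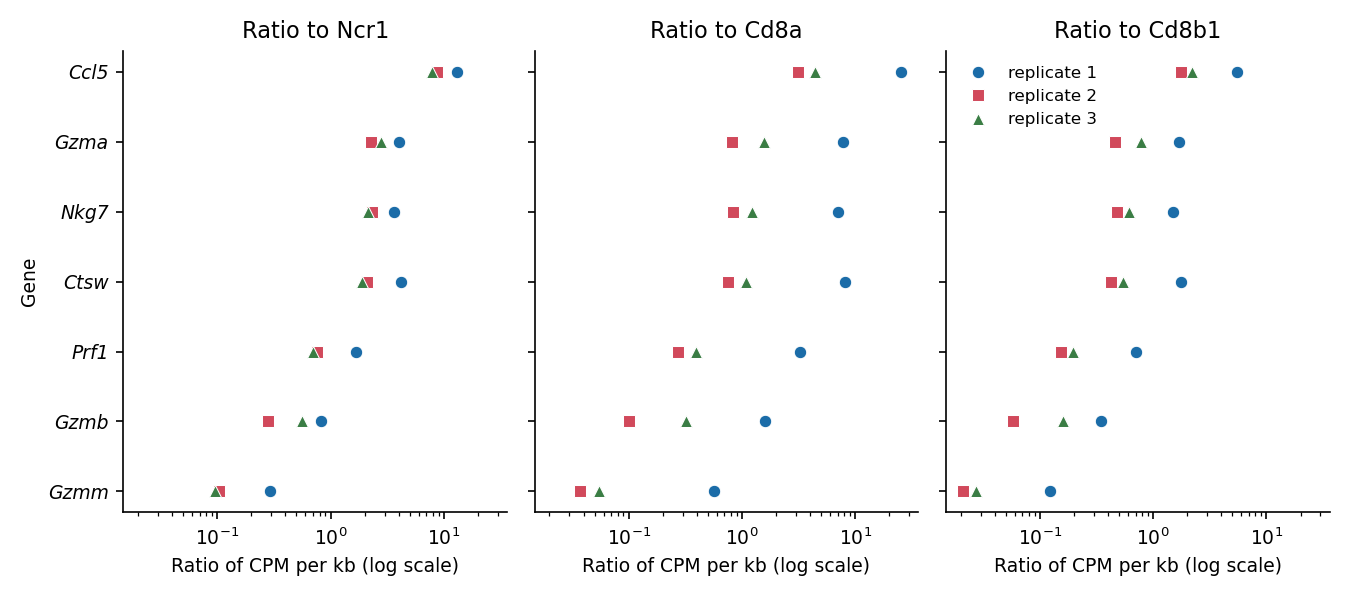
Ratio of CPM per kilobase of each of the 7 genes to Ncr1 (left), Cd8a (middle) and Cd8b1 (right) on a shared log scale, with 1 point per library. The highest point of a gene exceeds its lowest by 1.68 to 3.04 times for Ncr1, 8.15 to 15.7 times for Cd8a and 3.11 to 5.98 times for Cd8b1, with replicate 1 highest in each panel.

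Cells other than lymphocytes are also known to use Srgn and Ccl5. Neutrophil genes (S100a8, S100a9, Csf3r, Retnlg and Cxcr2) summed to 172, 67.8 and 690.3 CPM, macrophage genes to 842, 77.8 and 192 CPM, monocyte genes to 602, 783 and 315 CPM and platelet genes to 27.3, 4.49 and 16.8 CPM. Mast cell and basophil genes summed to 11.1, 8.34 and 32.9 CPM, and these genes did not run together: Cpa3 stood at 0.634, 0 and 1.37 CPM, Fcer1a at 0.951, 0.357 and 0.608, Hdc at 5.92, 0.642 and 27.9 and Cma1 at 0.845, 6.85 and 2.89, while Ms4a2 had 26, 7 and 2 counts. B cell genes summed to 189, 78.3 and 113 CPM and erythroid genes to 3053, 38.5 and 215 CPM. The sums of these lists were lowest in replicate 2, as Srgn was, except the monocyte genes, which were highest there in sum, as Ccl5 was (2 of 5 genes, Lyz2 and Ccr2). Their part in the levels of Srgn and Ccl5 was not tested.

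The genes whose library pattern was most like the members' median were sought among 8269 other genes with a mean of at least 10 CPM. Likeness was the root mean square difference of log2(CPM + 0.5), centred on each gene's own mean, over the 3 libraries. Klrb1c, which encodes the NK receptor NK1.1, came first with a difference of 0.08 log2 units and levels of 13.4, 72.2 and 35.2 CPM. Il18r1 and Il18rap, the chains of the interleukin 18 receptor, were read at 90.5, 347 and 189 CPM and at 25.7, 133 and 53.6 CPM. Crtam, an adhesion receptor of activated NK and CD8 T cells, was read at 9.09, 37.4 and 18.0 CPM. The others of the 10 were Atp8b4, Arl4d, Fgf13, Hid1, Chst11 and Pou6f1, with differences up to 0.13. Of the members themselves, Prf1 lay at 0.17 and Ctsw at 0.17 from their median, and Srgn at 1.30. Over 3 libraries many genes can share a pattern, and nothing is implied on function.

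The other genes of the granule pathway were compared with fixed levels of 1 and 50 CPM by edgeR's quasi-likelihood test, with p-values adjusted for false discovery (Benjamini-Hochberg) over the 15490 genes and a threshold of 0.05. Of 49 listed genes, 42 were measured and 40 had the 10 counts needed for the test. Above 1 CPM lay 39 of the 40, where 68.6% of all genes tested did. None of the 15490 genes was called below 1 CPM by edgeR or DESeq2, also at an unadjusted p under 0.05, so the count of 0 pathway genes below it says nothing of them. Above 50 CPM lay 17, against 19.9% of all genes tested, and below it 18, against 66.7%. The median of the 42 measured pathway genes was 50.1 CPM against 12.4 CPM over all genes tested. These levels and calls are not scaled by gene length. Per kilobase the medians were 16.1 and 5.50 CPM. The calls against 50 CPM rested on the tool: DESeq2's Wald test left 4 above (Lyst, Igf2r, Stat4 and Cflar) and 0 below, with 7 above and 5 below at an unadjusted p under 0.05.

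Of 9 genes that build the granule, edgeR called 6 above 50 CPM and 2 below, against 19.9 and 66.7% of all genes tested. A long gene gathers more counts, and Lyst has 11806 bases. Per kilobase the list's median was 25.9 CPM against 5.50 over all genes tested, and Lyst (50.5) lay below Lamp1 (60.7). DESeq2's Wald test called only Lyst and Igf2r of them, both above. Lyst, which regulates the size of lysosome-related granules, was read at 411, 774 and 604 CPM and lay above 50 CPM (edgeR adjusted p = 3.20e-07). Lamp1, the membrane protein that reaches the surface when granules are released, was highest of the list per kilobase at 150, 144 and 117 CPM (4.29e-05). Lamp2 was not separated from 50 CPM (54.2 ± 4.70 CPM, SD, n = 3; edgeR adjusted p = 0.457). Ctsl, a lysosomal protease, was read at 20.7, 9.13 and 8.43 CPM and lay below it (0.00162).

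Genes of granule release had ratios of replicate 2 to the mean of the others between 0.605 and 1.24. Rab27a, a GTPase that docks granules, was read at 84.9, 123 and 125 CPM, and Unc13d, which encodes the priming factor Munc13-4, at 91.2, 126 and 125 CPM. Both lay above 50 CPM (edgeR adjusted p = 3.64e-04 and 2.52e-04). Stx11, the syntaxin of granule fusion, was read at 28.5, 15.6 and 23.1 CPM and Sytl1 at 10.7, 11.9 and 12.6 CPM, and both lay below (0.00284 and 3.44e-04). Of 8 genes measured, 4 lay above 50 CPM by edgeR and 3 below, against 19.9 and 66.7% of all genes tested. The median ratio of replicate 2 to the mean of the others was 1.10 for these genes and 1.15 for the granule-building list, against 3.13 for the effectors; the difference was not tested.

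Inhibitors of granzymes and of cell death fell by type on either side of 50 CPM by edgeR, in CPM not scaled by gene length. Per kilobase, Cflar stood at 25.5 and Xiap at 23.3 CPM on average, and the serpins at 1.21 to 15.6. In replicate 1 Serpinb6a (26.2 CPM per kilobase) exceeded both Cflar (21.9) and Xiap (21.6). Of the calls against 50 CPM below, DESeq2's Wald test kept only that of Cflar. The caspase regulators Cflar (171, 209 and 219 CPM) and Xiap (141, 152 and 165 CPM) lay above 50 CPM (edgeR adjusted p = 4.43e-06 and 1.52e-05). The serpins lay below it. Serpinb9, the inhibitor of granzyme B that protects killer cells from their own enzyme, was read at 26.2, 37.2 and 28.3 CPM (0.00950, and 0.0860 without replicate 3). Serpinb6b was read at 15.7, 35.1 and 25.3 CPM (0.00947), Serpinb9b at 1.27, 4.28 and 1.44 CPM (0.00395) and Serpinb6a at 49.5, 15.8 and 23.2 CPM (0.0492). The call for Serpinb6a ended without replicate 2 (0.0532) and without replicate 3 (0.153). Serpinb9b was also the gene of the 40 not separated from 1 CPM (0.0915), a call that was made without replicate 1 (0.0195).

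Of 9 measured genes for death ligands, receptors and executioners, 1 lay above 50 CPM by edgeR and 7 below. Over all genes tested, 19.9% lay above and 66.7% below, so the counts of this list are near the general share. Casp8, the initiator caspase downstream of Fas, was read at 161, 200 and 211 CPM (edgeR adjusted p = 5.99e-06). Fas, the receptor of Fas ligand, was read at 25.5, 20.8 and 30.5 CPM (0.00296), and the adaptor gene Fadd at 15.6, 16.8 and 15.6 CPM (4.31e-04). Tnfrsf10b, the receptor for TRAIL, was lowest per kilobase at 4.54, 9.49 and 10.6 CPM (6.70e-04). Among the transcription factors above, 4 of 8 lay above 50 CPM and 2 below, with edgeR adjusted p = 2.33e-05 for Stat4, 0.00281 for Id2, 5.97e-04 for Zeb2 and 5.60e-04 for Prdm1, which lay below.

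Rarer granzyme genes were read near the limit of the counts. Gzme had 4 counts and Gzmf 5, all in replicate 1 (0.423 and 0.528 CPM), and neither was tested. Per kilobase they stood at 0.458 and 0.581 CPM there. The olfactory receptor genes stood at 0.253 CPM per kilobase in replicate 1, against 0.0225 and 0.0514 in replicates 2 and 3. At 0 counts, replicates 2 and 3 leave room for a level of 0.214 and 0.228 CPM, the worth of 3 counts. Gzmc, Gzmd, Gzmg and Gzmn were not analysed here, nor were Ifng, Vamp7 and Zfp683. The granzymes of this cluster are close paralogs, so reads may be split between them or lost.

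**Figure D4:**
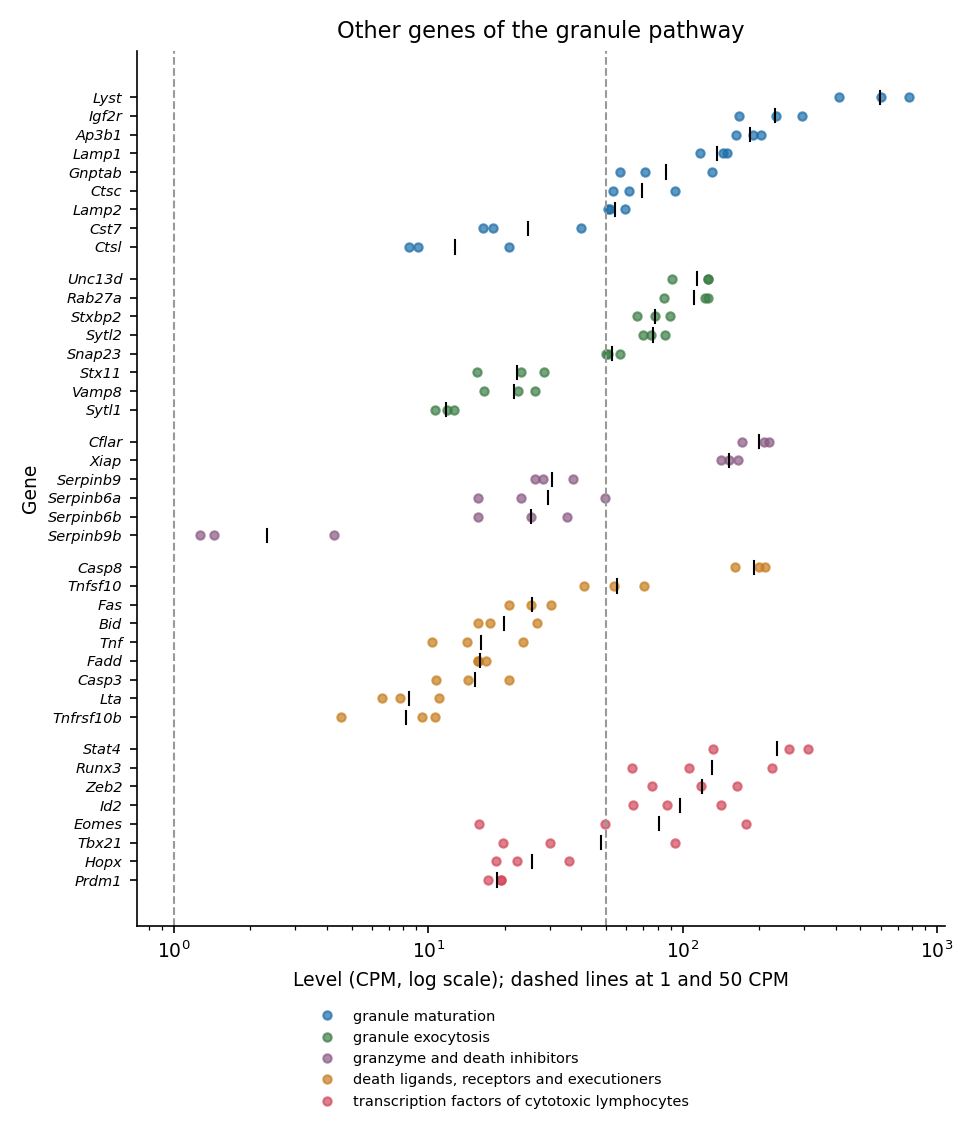
Level of the 40 pathway genes tested on the horizontal axis (CPM, log scale), coloured by list, with 1 point per library, a black bar at the mean and dashed lines at the reference levels of 1 and 50 CPM. Granule-building genes, led in CPM by Lyst, lie mostly right of 50 CPM, and levels are not scaled by gene length. Genes of death ligands and receptors lie mostly left of it, the side on which edgeR called 66.7% of all genes tested. Eomes, Tbx21 and Runx3 have the widest spread of points in the transcription factor list.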

How the data were processed

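The authors deposited 1 table of whole-number read counts for 3 libraries, with gene lengths. For its making, bcl2fastq, STAR 2.75, featureCounts, DESeq2 1.18.1 and build mm10 appear, without roles, per the submitters' processing notes. The sources used here do not state the annotation, the strand setting or how reads with several matches were treated. Date-like symbols (25) were restored through Entrez identifiers. CPM used TMM factors (edgeR 4.0.16; 1.04, 1.01 and 0.950) from the 15490 genes whose counts summed to 10 or more. Gene positions are those of RefSeq and exon overlaps those of GENCODE, both on GRCm38. Levels were tested against 1 or 50 CPM, two-sided, by edgeR's quasi-likelihood F test with an intercept alone; as glmQLFTest refuses that design, its F statistic was computed directly, with the null mean set by the offset, and checked on simulated data. DESeq2 1.42.0, other scalings, no filter, robust empirical Bayes and leaving out each library were alternatives. Members and gene lists were chosen with earlier results of these data known. The text names all members, the 2 highest and 2 lowest genes per kilobase of each pathway list (all of a list of up to 6), markers, and the 10 genes most alike. A few other pathway genes were named after their values were seen.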

Additional observations from a re-analysis of the deposited data

How the results depend on the processing

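The count of members highest in replicate 2 was 7 with each scaling tried (DESeq2 size factors, library totals alone, and totals without mitochondrial ribosomal RNA). The mean levels of 6 members moved by over 1.5 times without replicate 2: Ccl5 from 139 to 69.6 CPM, Nkg7 from 57.8 to 29.2, Ctsw from 80.6 to 42.4, Prf1 from 49.2 to 26.7, Gzmm from 4.37 to 2.51 and Gzma from 66.6 to 39.2. No member mean moved that far without replicate 1 or 3 or with another scaling. Fasl moved by more than its SD, to 22.6 CPM, without mitochondrial ribosomal RNA, since smaller totals raise every CPM. Against 50 CPM, DESeq2's Wald test called 4 pathway genes above and 0 below, in place of 17 and 18, and 7 and 5 at an unadjusted p under 0.05; the cause was not tested. Over all genes it called 900 above and 0 below, where edgeR called 3084 and 10336. With TMM factors from all genes, an alternative chosen after seeing the data, DESeq2 called 6 pathway genes above and 3 below, and 1165 and 5483 over all genes, while edgeR still called 17 and 18. With the factors used throughout, DESeq2 ended the call against 50 CPM of 18 of the 22 named genes tested. Of the others, Lamp2 had no call to end, and Lyst, Stat4 and Cflar kept theirs. Leaving out each replicate gave 39 to 40 pathway genes above 1 CPM, 16 to 18 above 50 CPM and 15 to 19 below it. Serpinb6a also lost its call against 50 CPM with DESeq2 size factors (adjusted p = 0.0532), library totals alone (0.0769), totals without mitochondrial ribosomal RNA (0.111) and robust empirical Bayes (0.0961). None of the 22 named pathway genes tested changed sides of 1 or 50 CPM under these alternatives, while Srgn was highest in replicate 1, not 3, with library totals alone. Gzmk, Gzmm, Gzme and Gzmf rest on 113 counts or fewer per library, so counting error limits their order. No paired analysis was possible because the labels give 1 group.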

Other observations

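Within each library the effector transcripts kept unlike proportions. Per kilobase, Gzma stood at 4.93, 8.08 and 4.91 times Gzmb, and at 2.41, 3.01 and 3.99 times Prf1. Nkg7 was read at 0.894, 1.02 and 0.778 times Gzma, the closest to even of the ratios to Gzma computed, which also covered Ccl5 (3.25, 3.80 and 2.83), Gzmk (0.105, 0.0124 and 0.0747) and Srgn (9.21, 0.769 and 3.14). Fasl stood at 1.06, 0.209 and 0.678 times Prf1, so the balance of the death ligand to the pore former differed 5.06-fold between the libraries at its extremes. Prf1 stood at 2.05, 2.68 and 1.23 times Gzmb, and Ctsw at 1.16, 0.901 and 0.881 times Nkg7. These 9 ratios were chosen after the levels were seen and carry no test. The Ly6C genes went opposite ways in replicate 2. Ly6c2 was read at 4.59 times the mean of the other libraries there, above the 3.98 of Ccl5, which leads the members. Its close paralog Ly6c1 was read at 0.233 times that mean, and the split of reads between them is uncertain.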
